A study of Mus musculus with 69 samples.

Results

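The Hoxa cluster was examined around 4 of its genes, Hoxa5, Hoxa7, Hoxa9 and Hoxa10, for the histone marks H3K4me1 and H3K27ac in mouse blood-forming cells. Every peak from 100 kb below the lower end of Hoxa5 to 100 kb above the upper end of Hoxa10 was taken from each of 18 peak lists, on the build mm10 (chr6:52101754-52340854, 239.1 kb). This window held 460 of the 1506511 peaks of all lists, and the 4 genes were chosen by name from 21887 annotated protein-coding genes. It contained 28 annotated genes and RNAs, of which 12 code for protein, namely 11 Hoxa genes and Evx1.

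Hox genes encode homeodomain transcription factors that lie in clusters, in an order that follows their use along the body axis. In blood formation, genes in the middle and 5′ part of the Hoxa cluster are active in stem cells and early progenitors and are turned down as cells mature, and in mice Hoxa9 together with its cofactor Meis1 drives leukaemia. H3K4me1 is a mark of enhancers that MLL3 (encoded by Kmt2c) and MLL4 place, whereas H3K27ac marks active enhancers and promoters, and the related enzyme MLL1 (Kmt2a) is known to maintain the later Hoxa genes in haematopoietic cells.

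Haematopoietic stem cells (HSC) and progenitor cells (HPC) were sorted, fixed and profiled by ChIPmentation, in which precipitated chromatin is tagged by the Tn5 transposase. Genotypes were wild type, heterozygous (Kmt2c f/+; Vav-Cre) and knockout (Kmt2c f/f; Vav-Cre), and Vav-Cre deletes the floxed allele throughout the blood system rather than in stem cells alone. H3K4me1 was profiled in HSC and HPC of all 3 genotypes in untreated mice aged 8 weeks, with 3 libraries for each list. At 16 weeks of age, HSC of wild-type and knockout mice that had received 3 doses of 5-fluorouracil (5FU, 150 mg/kg) or of PBS, 3 weeks apart, were profiled for H3K27ac (3 libraries a list) and H3K4me1 (3 to 6 libraries a list). For H3K27ac in HPC (4 libraries a list), wild-type and knockout mice of 8 to 10 weeks had been given PBS or interleukin-1 (IL-1, 0.5 µg per day) for 3 days. Each group had 1 deposited list for all its libraries, so there is no error between replicates and no test between conditions, and every difference below is one between 2 lists. A peak list also cannot tell whether more cells carry a mark or each cell carries more of it.

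The 8 H3K27ac lists held 37002 to 67143 peaks and the 10 H3K4me1 lists 76274 to 134509. The H3K4me1 lists at 16 weeks were the weakest of that mark by the authors' −log10 p, which reached 5 in 30.2% to 39.5% of peaks in 3 of them and 54.2% in the wild-type 5FU list, against 86.5% to 95% at 8 weeks. That wild-type 5FU list pooled 6 libraries with 2 different prefixes in their titles. Sorting was checked on marker genes: all 6 HSC markers carried H3K27ac peaks in each of the 4 HSC lists and 4 or 5 of 6 in the HPC lists, with 69262 to 88742 against 43014 to 49004 covered bases in sum. Mecom carried most of the HSC sum (52257 to 70097 bases in HSC and 17063 to 21753 in HPC), and Hlf went the other way (7582 to 8175 and 22908 to 27182). For 6 markers of committed progenitors the sums were 12043 to 18051 in HSC and 38608 to 49906 in HPC. Markers of stroma and endothelium (714 to 2540 bases in HSC, 5902 to 7076 in HPC) and of mature lymphoid cells (1448 to 3365 and 4163 to 4859) were also lower in HSC. The erythroid factor Klf1 carried H3K27ac in each list, and Col1a1, Lepr, Cd3e, Ms4a1 and Epor, which mark stroma, lymphoid and erythroid cells, were at 0 in all 8 H3K27ac lists.

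The promoters at issue are shown first, because the edges of the acetylated part fell beside some of them and not others. All 4 genes are transcribed from the minus strand, so the higher coordinate is the start of the gene, and Hoxa10 has both an internal and a distal start. Each sequence below runs 5′ to 3′ from 250 bases before to 50 bases after a RefSeq start site on GRCm38.p6 (mm10), minus strand, with CG dinucleotides in capitals. Hoxa5 lies at chr6:52204538-52204837, the distal Hoxa3 start at chr6:52213018-52213317, Hoxa7 at chr6:52218524-52218823, Hoxa9 at chr6:52227321-52227620, the internal Hoxa10 start at chr6:52234890-52235189 and the distal Hoxa10 start at chr6:52240805-52241104.
Hoxa5 promoter: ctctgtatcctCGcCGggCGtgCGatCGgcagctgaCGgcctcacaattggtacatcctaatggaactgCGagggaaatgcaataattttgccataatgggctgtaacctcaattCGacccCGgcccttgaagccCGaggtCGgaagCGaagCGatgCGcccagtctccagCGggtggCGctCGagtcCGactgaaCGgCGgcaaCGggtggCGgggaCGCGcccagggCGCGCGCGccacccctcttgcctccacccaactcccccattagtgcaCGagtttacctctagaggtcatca
Hoxa3 distal promoter: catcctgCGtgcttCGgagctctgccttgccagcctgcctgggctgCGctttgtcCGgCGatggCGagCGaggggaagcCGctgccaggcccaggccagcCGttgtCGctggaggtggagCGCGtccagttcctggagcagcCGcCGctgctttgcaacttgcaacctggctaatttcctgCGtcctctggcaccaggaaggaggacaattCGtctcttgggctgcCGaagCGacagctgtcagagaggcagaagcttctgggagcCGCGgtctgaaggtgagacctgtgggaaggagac
Hoxa7 promoter: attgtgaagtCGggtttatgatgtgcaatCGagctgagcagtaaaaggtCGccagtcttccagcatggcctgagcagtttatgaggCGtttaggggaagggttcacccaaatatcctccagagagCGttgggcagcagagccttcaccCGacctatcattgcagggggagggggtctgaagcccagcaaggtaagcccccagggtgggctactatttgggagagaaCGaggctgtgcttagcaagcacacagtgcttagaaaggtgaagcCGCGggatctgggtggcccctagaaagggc
Hoxa9 promoter: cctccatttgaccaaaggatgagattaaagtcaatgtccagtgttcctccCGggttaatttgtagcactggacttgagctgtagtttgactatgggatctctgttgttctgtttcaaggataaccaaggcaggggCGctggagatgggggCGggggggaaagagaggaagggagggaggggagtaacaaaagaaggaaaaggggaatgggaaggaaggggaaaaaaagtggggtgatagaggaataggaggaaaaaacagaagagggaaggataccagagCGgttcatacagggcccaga
Hoxa10 internal promoter: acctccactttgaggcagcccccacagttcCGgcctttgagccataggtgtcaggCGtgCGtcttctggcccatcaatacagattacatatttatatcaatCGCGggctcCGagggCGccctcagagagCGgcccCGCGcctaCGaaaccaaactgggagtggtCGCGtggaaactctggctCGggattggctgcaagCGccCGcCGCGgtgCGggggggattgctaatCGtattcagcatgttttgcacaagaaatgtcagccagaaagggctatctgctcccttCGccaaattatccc
Hoxa10 distal promoter: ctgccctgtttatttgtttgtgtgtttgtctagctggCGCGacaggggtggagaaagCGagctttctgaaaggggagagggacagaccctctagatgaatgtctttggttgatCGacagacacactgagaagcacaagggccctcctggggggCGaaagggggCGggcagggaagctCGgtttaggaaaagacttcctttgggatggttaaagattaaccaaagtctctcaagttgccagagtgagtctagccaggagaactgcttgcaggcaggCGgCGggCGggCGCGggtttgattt
They held 29 (Hoxa5), 20 (distal Hoxa3), 9 (Hoxa7), 4 (Hoxa9), 21 (internal Hoxa10) and 12 (distal Hoxa10) CG pairs, where the median of 32851 promoters was 7. On both strands, TATAAA occurred in the internal Hoxa10 promoter (13.6% of all promoters hold it), CCAAT in those of Hoxa5 and internal Hoxa10 (37.4%), GGGCGG in those of Hoxa9 and distal Hoxa10 (35.7%), TGACAG, the core letters bound by MEIS proteins, in that of distal Hoxa3 (19.2%), and TGATNNAT, bound by PBX and HOX proteins as a pair, in none of the 6 (8.85%). These matches describe the letters in each window only.

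Between Hoxa9 and Hoxa10 lies Mir196b (chr6:52230081-52230165), a microRNA gene whose product is known to act on Hox transcripts. Its mature arms, from RefSeq on GRCm38.p6, minus strand, are shown with the seed (bases 2 to 8) in capitals because they lie inside the acetylated block. The 5p arm is at chr6:52230129-52230150 and the 3p arm at chr6:52230094-52230115.
mmu-miR-196b-5p: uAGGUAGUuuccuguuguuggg
mmu-miR-196b-3p: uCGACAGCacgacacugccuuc

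H3K27ac formed 1 block over Hoxa7, Hoxa9, Mir196b and the lower part of Hoxa10, and it was there in all 8 lists. Peaks no more than 500 bp apart joined into a block of 22.64 to 23.59 kb, which held 80.9% to 99.1% of all H3K27ac bases of the window. All 8 lists shared a core at chr6:52211931-52234424 (22.49 kb), of which 96.9% to 100% was covered. Blocks this wide were rare in the lists: between 1 and 9 of 27589 to 41343 blocks in a list were wider.

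The edges of the block repeated between lists to within 1 kb. Its lower edge lay from 52211036 (knockout HPC after PBS) to 52211931 (knockout HSC after 5FU), a spread of 895 bp, and its upper edge from 52234424 (wild-type HPC after IL-1) to 52235109 (wild-type HSC after PBS), a spread of 685 bp. The lower edge fell inside the RefSeq interval of Hoxa3, which runs past Hoxa4 to Hoxa6, below the distal Hoxa3 start. The upper edge fell inside Hoxa10, next to its internal start.

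**Figure D1:**
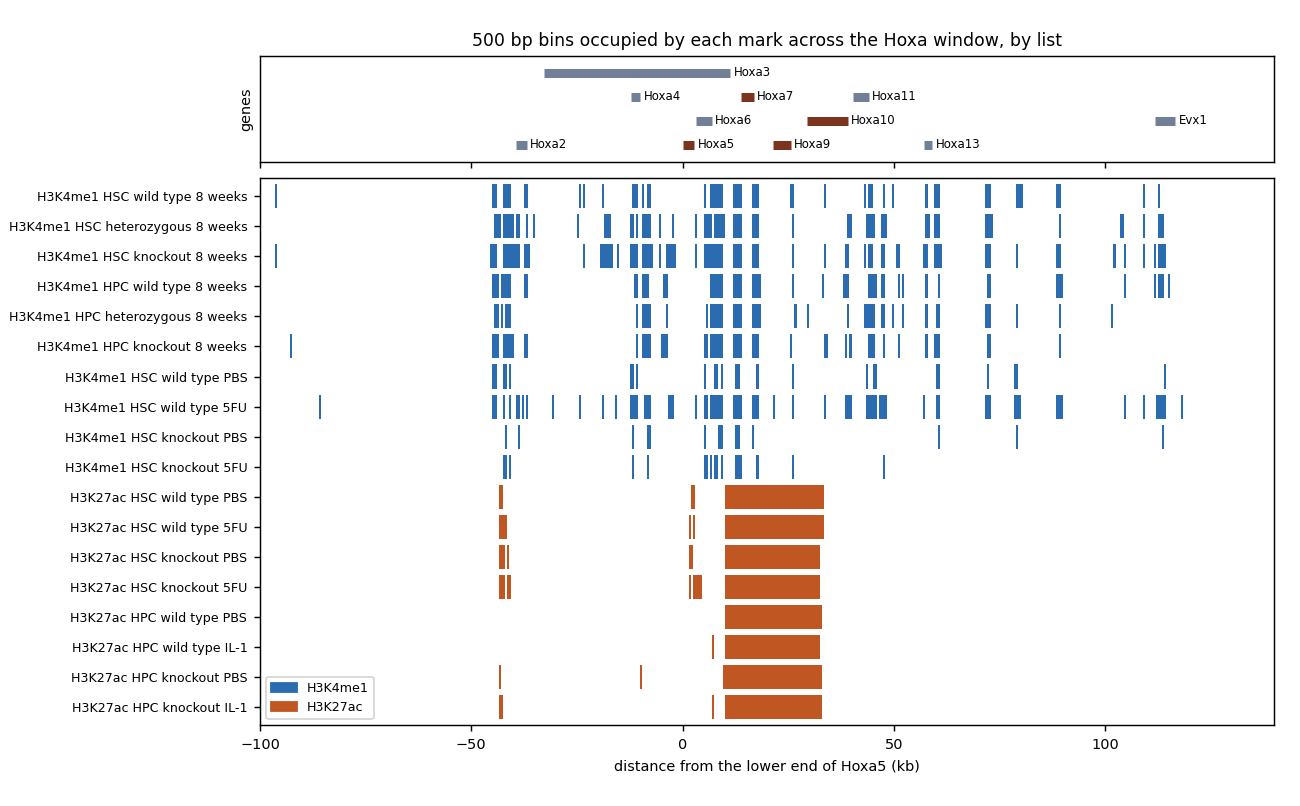
Bins of 500 bp occupied by peaks (at least 50% of the bin covered) along the window for each of the 18 lists, H3K4me1 in blue and H3K27ac in orange; the x axis is the distance in kb from the lower end of Hoxa5 and the bars above mark named genes, with the 4 described genes in brown. In all 8 H3K27ac lists 1 wide block covers 22.5 kb, whereas H3K4me1 is scattered over the cluster and the upper flank.

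Within the block, the strongest peak had its summit at Hoxa7 in 6 of 8 lists, between 52217823 and 52217910. In knockout HSC after PBS it lay at 52220474, between Hoxa7 and Hoxa9, and in wild-type HPC after PBS at 52229515, between Hoxa9 and Hoxa10. The authors' fold enrichment of that peak was 14.8 (PBS) and 10.4 (5FU) in wild-type HSC, 12.3 and 6.72 in knockout HSC, 17.2 (PBS) and 18.8 (IL-1) in wild-type HPC, and 15.4 and 9.02 in knockout HPC. In their own lists these peaks ranked in the top 1.79% to 9.30% by −log10 p.

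The block was cut into 1 to 10 peaks by gaps of 59 to 336 bp. It was a single peak of 23586 bp in knockout HPC after PBS and had 10 peaks in knockout HSC after 5FU, the list with the lowest fold enrichment. Some gaps recurred at the same places. One lay between Hoxa7 and Hoxa9 near 52222678 in both knockout HSC lists and both wild-type HPC lists, and another just before the Hoxa9 start, near 52227426, in 3 of 4 HSC lists and 0 of 4 HPC lists. Just below Hoxa7, gaps at differing positions between 52214757 and 52215494 cut the block in every HSC list. They also did so in wild-type HPC after PBS and in knockout HPC after IL-1.

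**Figure D2:**
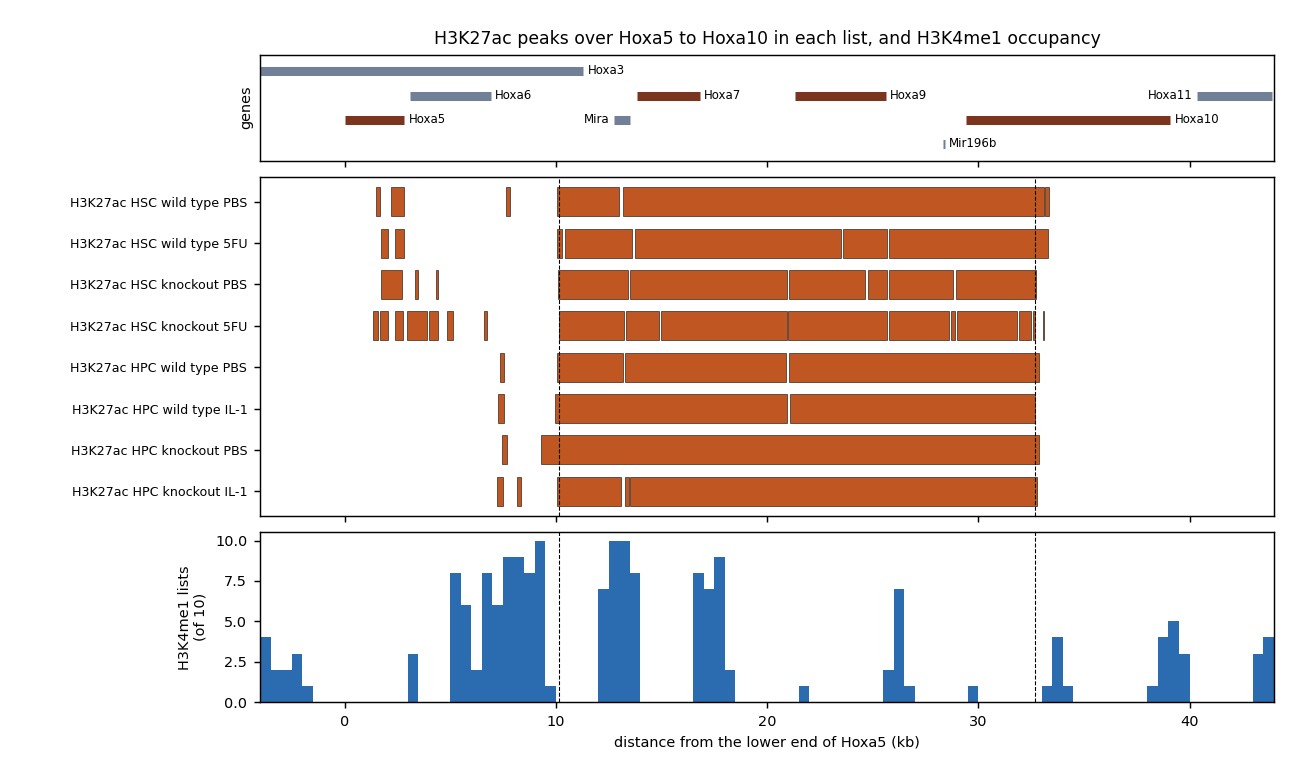
H3K27ac peaks of each list between Hoxa5 and Hoxa10 (orange boxes, middle) and the number of the 10 H3K4me1 lists that occupy each 500 bp bin (bottom), against the distance in kb from the lower end of Hoxa5; dashed lines mark the 22.49 kb core. The H3K27ac edges line up between lists, the H3K4me1 columns are highest just below the block and at Mira, below Hoxa7, and 4 of 4 HSC lists but 0 of 4 HPC lists have H3K27ac peaks at Hoxa5.

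Outside the block, H3K27ac was sparse. Hoxa6 with 2 kb on each side, a stretch that takes in most of Hoxa5, had 205 to 2801 covered bases in 8 of 8 lists, and the gene itself was reached in 2, both of knockout HSC. The lower flank, the part after Hoxa10 to Hoxa13, and the upper flank with Evx1 had 0 covered bases in all 8 lists, as had the upper 5745 bp of Hoxa10 (52235110 to 52240854), which include its distal start. In the 46387 bp of the cluster below Hoxa5, which hold the anterior genes up to Hoxa4, the lists covered 890 (PBS) and 2530 (5FU) bases in wild-type HSC and 1682 and 2370 in knockout HSC. In HPC the values there were 0 after both treatments in wild type, and 1059 (PBS) and 729 (IL-1) in knockout.

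Hoxa5, a factor with known roles in blood and lung development, stood outside the block. With 2 kb added on each side of the gene (chr6:52201754-52204587, gene ID 15402), H3K27ac covered 822 bases in wild-type HSC after PBS, 757 after 5FU, 1274 in knockout HSC after PBS and 2354 after 5FU. It covered 0 bases in all 4 HPC lists. HSC and HPC lists did not overlap at this gene, which was also so at 12.9% of all genes with HSC higher and at 48.6% in either direction. They also differed in age and treatment, and the cell type cannot be told apart from these. The best Hoxa5 peaks were of middling rank, with 18.2% to 41.4% of their own list above them, and 3 of 8 lists reached into the promoter shown above.

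For Hoxa7 (chr6:52215623-52218573, gene ID 15404), a homeodomain gene active in early progenitors, the block covered the gene and its surroundings almost entirely. H3K27ac covered 6766 and 6835 bases (PBS and 5FU) in wild-type HSC and 6858 and 6786 in knockout HSC. In HPC it covered 6892 and 6951 (PBS and IL-1) in wild type and 6951 and 6681 in knockout. The 8 values lay within 270 bases of one another, and the Hoxa7 promoter and the distal Hoxa3 promoter were whole inside peaks in 8 of 8 lists.

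Hoxa9 (chr6:52223097-52227370, gene ID 15405), which expands stem and progenitor cells when overexpressed in mice, had the same evenness of covered bases, with peaks over nearly the whole stretch. Its H3K27ac values were 8274 and 8094 bases (PBS and 5FU) in wild-type HSC and 7952 and 8084 in knockout HSC. They were 8132 and 8134 (PBS and IL-1) in wild-type HPC and 8274 and 8274 in knockout HPC. From 97.0% to 100% of the gene itself was covered, and its promoter was touched in 8 of 8 lists and whole in 5.

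Hoxa10 (chr6:52231197-52240854, gene ID 15395), known from mouse studies for its effects on stem cell and myeloid growth, was split by the block's upper edge. H3K27ac covered 5827 and 5867 bases (PBS and 5FU) in wild-type HSC and 5190 and 5007 in knockout HSC. It covered 5432 and 5228 (PBS and IL-1) in wild-type HPC and 5425 and 5324 in knockout HPC. The 2 wild-type HSC lists were the highest, and they alone had peaks that touched the internal Hoxa10 promoter. In knockout HSC after 5FU the block ended at 52234888, just short of that promoter, which begins at 52234890. Of the gene, 32.9% to 40.0% was covered, always its lower part.

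**Figure D3:**
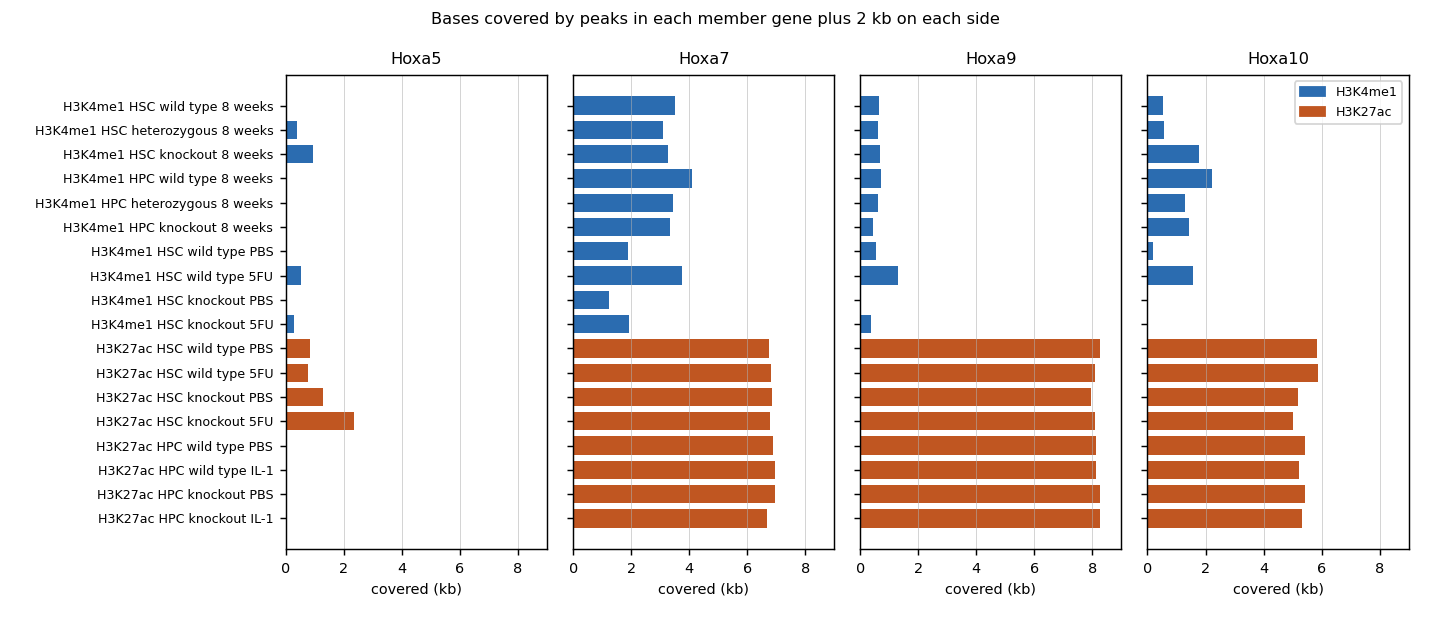
Bases covered by peaks (kb, x axis) in each of the 4 genes plus 2 kb on each side, 1 bar for each of the 18 lists, H3K4me1 in blue and H3K27ac in orange. The bases covered by H3K27ac at Hoxa7, Hoxa9 and Hoxa10 hardly differ between the 8 lists, and at Hoxa5 the mark is present in the 4 HSC lists and at 0 in the 4 HPC lists.

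H3K4me1 followed another plan. Over the block's core it covered 5.52% to 23.4% (median 17.1%) in the 10 lists, where H3K27ac covered nearly all bases. In the 5 kb just below the block, from Hoxa6 upward, it covered 29.2% to 85.9% (median 64.2%), where H3K27ac covered 0% to 12.1%. Of the whole window, 22.5 kb of bins held H3K4me1 in at least 5 of 10 lists, 24.0 kb held H3K27ac in at least 4 of 8, and 4.0 kb held both at once. Of the H3K4me1 summits in the window, 18.2% (8 of 44, Wilson 95% interval 9.51% to 32.0%, heterozygous HSC) to 47.6% (10 of 21, 28.3% to 67.6%, knockout HSC after 5FU) lay from Hoxa5 to Hoxa10. Of H3K27ac summits it was 50% (2 of 4, 15.0% to 85.0%, knockout HPC after PBS) to 100% (4 of 4, with a lower bound of 51.0%, in wild-type HPC after PBS, and 3 of 3 after IL-1). These intervals cover counting error only.

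The 1.5 kb of bins that all 10 H3K4me1 lists occupied lay on both sides of the block's lower edge. One stretch, chr6:52209254-52211253, lay between Hoxa6 and the block, and H3K4me1 reached 10 of 10 lists there while its bins were occupied by H3K27ac in 0 of 8. The other, chr6:52214254-52215753, covers Mira, a noncoding RNA, and the lower end of Hoxa7, and H3K4me1 reached 10 of 10 lists there and H3K27ac 8 of 8. A 500 bp bin at 52218254, at the Hoxa7 start, and one at 52219254, 681 bp beyond the gene, held H3K4me1 in 8 and 9 lists.

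Outside the 4 genes, the stretches with H3K4me1 in 8 or more lists included bins at Hoxa3 and Hoxa4 (up to 9 lists), at Hoxa6 (8), at Hoxa11os, an antisense RNA of Hoxa11 (8), and in the upper flank 22 bp before and 6151 bp past the noncoding RNA Hottip (9 and 8). The Hoxa11 promoter was touched by H3K4me1 in 10 of 10 lists and by H3K27ac in 0 of 8. The strongest 3 H3K4me1 peaks of the wild-type lists were mostly these same stretches: in HSC at 8 weeks they were the Mira and Hoxa7 peak, the one beyond Hoxa7 and one in the upper flank (chr6:52273419-52274716), and in HPC they included those below the block and at Mira.

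Of the 4 genes, Hoxa7 was the one with H3K4me1 in every list when 2 kb were added on each side. The gene itself held H3K4me1 in 8 of 10 lists, with a median of 9.47% covered. With 2 kb on each side the mark covered 3516, 3082 and 3258 bases in wild-type, heterozygous and knockout HSC at 8 weeks. In HPC it covered 4113, 3428 and 3322. At 16 weeks it covered 1875 (PBS) and 3739 (5FU) in wild-type HSC and 1242 and 1925 in knockout HSC. The lists at 16 weeks other than wild-type 5FU were the lowest.

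At Hoxa9 the gene body was nearly free of H3K4me1: 1 of 10 lists, wild-type HSC after 5FU, had any (376 bases). With 2 kb added, the values were 634, 625 and 680 bases in wild-type, heterozygous and knockout HSC at 8 weeks, 729, 594 and 445 in HPC, 551 and 1302 in wild-type HSC at 16 weeks (PBS and 5FU), and 0 and 364 in knockout HSC. Apart from those 376 bases, it lay just before the Hoxa9 start, between Hoxa9 and Mir196b.

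At Hoxa10, H3K4me1 with 2 kb on each side covered 521, 576 and 1769 bases in wild-type, heterozygous and knockout HSC at 8 weeks and 2230, 1310 and 1437 in HPC. At 16 weeks it covered 180 (PBS) and 1584 (5FU) in wild-type HSC and 0 in both knockout lists. The lower Hoxa10, inside the block, held H3K4me1 in 2 of 10 lists, both of HPC (wild type and heterozygous, at most 699 bases), and the part above the block in 6 of 10 (at most 1123 bases). The other covered bases lay in the 2 kb surroundings or in the short stretch of the gene between these 2 parts, which holds the internal start.

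Hoxa5 had H3K4me1 in 4 of 10 lists and 0 bases inside the gene in any: 368 bases (heterozygous) and 943 (knockout) in HSC at 8 weeks, and 515 (wild type) and 272 (knockout) in HSC after 5FU. The 3 HPC lists, both PBS lists and wild-type HSC at 8 weeks had none.

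**Figure D4:**
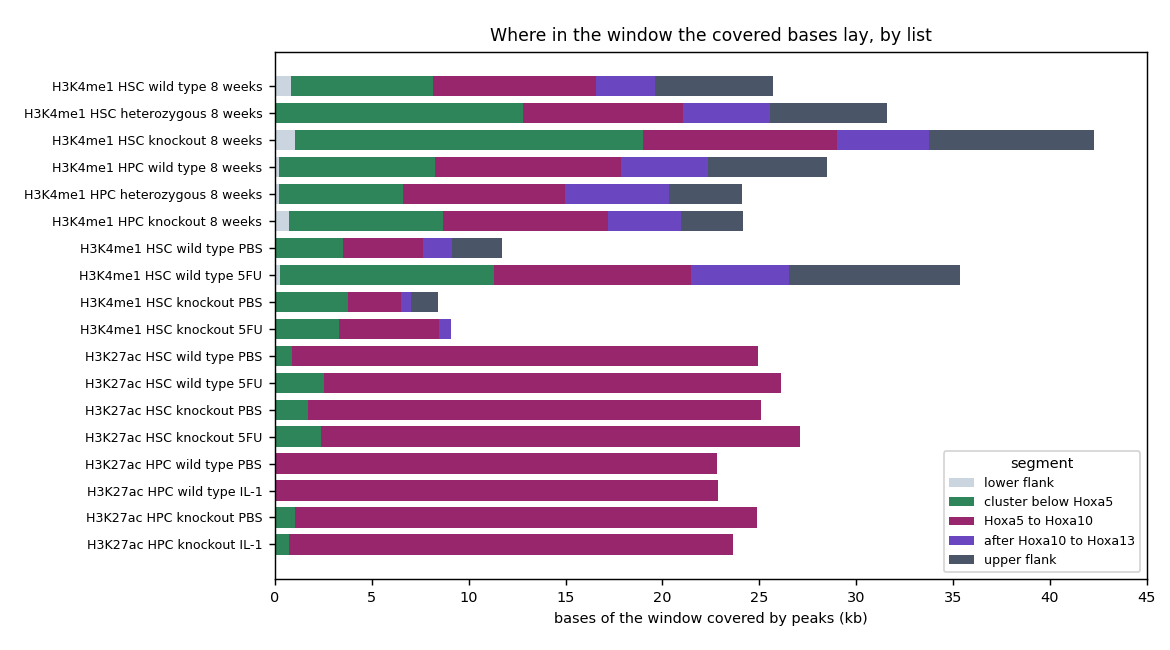
Bases of the window covered by peaks (kb, x axis) in each list, stacked by the 5 segments from the lower to the upper flank. H3K27ac lies almost entirely in the segment from Hoxa5 to Hoxa10, whereas H3K4me1 is spread over 3 to 5 segments and differs more in total between lists.

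To compare 2 lists, the log2 ratio of covered bases was taken after adding 1000 bases to each, and the median of the same ratio over all protein-coding genes was subtracted. This relative log2 ratio was computed for the window, beside all genes plus 100 kb on each side, and for each gene plus 2 kb on each side where either list covered at least 1000 bases. A value at least 1.5-fold from the median gene in either direction is called past the fold, and the share of all genes past it is given as background. Comparisons that use the same list are not independent of each other. Of 21 comparisons, the window was past the fold in 1.

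Loss of Kmt2c in HSC at 8 weeks went with more H3K4me1 over the anterior genes and little difference over Hoxa7 and Hoxa9. In the cluster below Hoxa5, wild-type, heterozygous and knockout HSC had 7344, 12825 and 17955 covered bases, an order that follows the number of floxed alleles, while from Hoxa5 to Hoxa10 they had 8395, 8232 and 10053. Over the whole window the values were 25704, 31621 and 42271, and the lists also differed in size (86.07, 103.5 and 113.5 Mb covered). Relative to the median gene, the window was at 0.30 (log2) in knockout over wild type, 0.05 in heterozygous over wild type and 0.26 in knockout over heterozygous, all short of the fold, which 4.61%, 2.93% and 1.94% of genes passed.

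Among the 4 genes in these HSC lists, knockout over wild type had 0 past the fold of 2 that could be compared, against 10.1% of all genes: Hoxa7 stood at -0.43 and Hoxa10 at 0.52. Heterozygous over wild type had 0 of 1 (background 6.86%), with Hoxa7 at -0.36. Knockout over heterozygous had 1 of 2 (background 5.48%), namely Hoxa10 at 0.69, a call that none of the 5 alternative settings kept (0.21 to 0.45). Hoxa2, outside the 4, was past the fold in both mutants over wild type, at 0.66 and 0.63. A strong peak at Hoxa2 (chr6:52162067-52163213), in the top 25% of its list by −log10 p, was found in knockout HSC with no counterpart in wild-type HSC or in knockout HPC. In all, 23 of 57 knockout regions of the window had no overlap in wild type, against 35.8% of all knockout regions, and 7 of 43 wild-type regions had none in knockout, against 15.9%. Strong wild-type HSC peaks missing from heterozygous HSC and from wild-type HPC were one in Hoxa10 just above the block (chr6:52235353-52235731) and one in the upper flank (chr6:52280903-52282003). Both had a counterpart in knockout HSC, so neither was missing from both mutants. Here and below, the share of all strong regions without overlap was not taken, so the strong peaks named describe the window only.

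In HPC at 8 weeks both mutants stood below wild type over the window. The window held 28486, 24121 and 24147 covered bases in wild-type, heterozygous and knockout HPC, and the anterior genes 8033, 6408 and 7990. The window stood at -0.23 in knockout over wild type, -0.20 in heterozygous over wild type and -0.04 in knockout over heterozygous (background 3.45%, 2.49% and 2.35%). Of the 4 genes, 0 of 2 were past the fold in each of these comparisons, against 8.44%, 6.6% and 5.89% of all genes. Hoxa7 stood at -0.24, -0.18 and -0.07, and Hoxa10 at -0.41, -0.45 and 0.05. With both lists reduced to equal numbers of peaks, Hoxa10 in knockout over wild type was past the fold at -0.74. One strong wild-type HPC peak, between Hoxa11 and Hoxa13 (chr6:52253814-52254165), had no counterpart in knockout HPC or in wild-type HSC. Evx1, in the upper flank, was past the fold in both mutants over wild type (-1.41 and -1.39).

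Between cell types, H3K4me1 differed at Hoxa10, where HPC of wild type and heterozygotes had more, and at the anterior genes, where HPC of heterozygotes and knockouts had less. In wild type, HPC over HSC, the window stood at -0.12 (background 16.0%), and 1 of the 2 comparable genes was past the fold (background 22.3%), Hoxa10 at 0.90, with 2230 against 521 bases. In heterozygotes the window stood at -0.35 (background 17.3%), and Hoxa10 was again the 1 of 2 past the fold at 0.61 (background 23.0%). In knockouts the window was past the fold at -0.64 (background 18.9%), with 24147 against 42271 bases, and 0 of 2 genes were (background 24.6%), Hoxa10 standing at -0.03. The Hoxa10 calls were lost in 2 of 5 alternative settings in wild type and 3 of 5 in heterozygotes, and the window call of the knockout in 3 of 5. Single calls are common between these cell types, as the background shares show. Markers moved with the cell type as well: in H3K4me1, committed progenitor markers summed to 9941 to 28734 bases in the 7 HSC lists and 50884 to 52227 in the 3 HPC lists, and those of stroma and endothelium to 4753 to 12671 and 21897 to 23087, and their part in the result was not tested.

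The knockout difference between cell types came mostly from the anterior genes and the upper flank. In the cluster below Hoxa5, knockout HPC had 7990 and knockout HSC 17955 bases, and in the upper flank 3172 and 8505, while from Hoxa5 to Hoxa10 they had 8511 and 10053. Hoxa3 stood at -0.80 and Hoxa4 at -0.59, and 26 of 57 knockout HSC regions had no overlap in knockout HPC, against 36.7% of all knockout HSC regions. The other way it was 3 of 36, against 27.5% of all knockout HPC regions. 2 of the knockout HSC regions were strong and lay below Hoxa5, the Hoxa2 peak named above and one at chr6:52198577-52200021.

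After 5FU, the H3K4me1 lists of HSC at 16 weeks could be compared only with care for their unequal strength. The window held 11705 bases after PBS and 35358 after 5FU in wild type, and 8409 and 9110 in knockout. Relative to the median gene, 5FU over PBS stood at 0.47 in wild type (background 8.71%) and 0.10 in knockout (background 6.26%), and knockout over wild type at -0.24 after PBS (background 7.5%) and -0.58 after 5FU (background 13.3%). With both lists reduced by −log10 p to equal covered bases, the wild-type value turned to -0.73 and the knockout over wild-type value after 5FU to 0.71, so neither direction is given as a result. Of the 4 genes, 0 of 3 were past the fold for 5FU over PBS in wild type (background 13.8%), 0 of 1 in knockout (11.8%), 0 of 1 for knockout over wild type after PBS (12.4%) and 0 of 3 after 5FU (19.5%). Strong peaks of the wild-type 5FU list with no counterpart in wild type after PBS lay at Hoxa6 (chr6:52208205-52208813) and at Hoxa11os (chr6:52245987-52246274). With both lists reduced to equal numbers of peaks, 0 strong regions were left without a counterpart in this comparison.

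The bases covered by H3K27ac in HSC hardly moved with 5FU or genotype at the genes of the block. Peaks already covered 96.9% to 100% of the core in every list, so covered bases could hardly show a change of level inside it. The fold enrichment of the block's strongest peak, given above, did differ between lists. The window stood between 0.00 and 0.24 in the 8 H3K27ac comparisons. For 5FU over PBS it was at 0.00 in wild type (background 1.54%) and 0.05 in knockout (1.82%), and for knockout over wild type at 0.19 after PBS (4.51%) and 0.24 after 5FU (4.33%). Of the 4 genes, 0 of 3 were past the fold for 5FU over PBS in wild type (background 2.98%), 0 of 4 in knockout (3.19%) and 0 of 4 for knockout over wild type after PBS (6.73%). After 5FU, knockout over wild type had 1 of 4 past the fold (background 7.47%), Hoxa5 at 1.02, with 2354 against 757 bases, while Hoxa7 stood at 0.07, Hoxa9 at 0.08 and Hoxa10 at -0.11. The Hoxa5 call was lost with peaks of a −log10 p of at least 5 (0.105) and with 5000 bases added (0.39). That knockout list was also the weakest H3K27ac list, with 30.5% of its peaks at such a −log10 p against 48.6% in wild type. Hoxa5's neighbour Hoxa6, whose 2 kb surroundings overlap those of Hoxa5, was past the fold as well, with 2801 against 757 bases.

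In HPC, the bases covered by H3K27ac hardly differed with IL-1 or genotype, with the same limit inside the core. The window stood at 0.03 (background 2.6%) and 0.12 (2.4%) for IL-1 over PBS in wild type and knockout, and at 0.08 (3.55%) and 0.17 (3.56%) for knockout over wild type after PBS and IL-1. Of the 4 genes, 0 of 3 were past the fold in each of these 4 comparisons, against 4.09%, 3.57%, 5.01% and 5.13% of all genes, and Hoxa7, Hoxa9 and Hoxa10 stood between -0.05 and 0.12.

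The partners and regulators of Hoxa genes were measured beside them, with 50 kb on each side of each gene and the same fold. Of 9 genes for MLL1, menin and elongation factors, 5 had less H3K4me1 in wild-type HPC than HSC and 0 had more (background 19.0% of all genes in either direction), 4 had less in heterozygotes (20.0%) and 4 in knockouts (21.5%), with medians of -0.59, -0.39 and -0.46. Mllt3, an elongation factor that supports stem cell renewal, was furthest at -1.99, -2.02 and -2.13, with 22690 against 77826 bases in wild type. Of 5 Hox cofactors, which bind DNA together with Hox proteins, 3 had less in HPC in wild type, 1 in heterozygotes and 2 in knockouts, and 0 had more. Meis2 stood at -0.87, -0.48 and -1.09, Pbx3 at -0.65, -1.10 and -0.88, and Meis1 at -0.62, -0.49 and -0.52. Of 9 Polycomb genes, whose products silence Hox clusters, 1 had more and 1 had less in wild type, 0 in either direction in heterozygotes, and 1 had less in knockouts. In the same lists Hoxa7, with 2 kb on each side, stood at -0.01, 0.17 and 0.18, and Hoxa10 at 0.90, 0.61 and -0.03.

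Genotype was compared for the same genes. Knockout over wild-type HSC at 8 weeks had 1 of 5 cofactors (Pbx3, 0.87), 1 of 9 MLL1-related genes (Mllt10, 0.72) and 2 of 9 Polycomb genes (Ezh2, 0.88, and Eed, 0.66) past the fold, all higher, against 5.87% of genes. In HPC the 1 gene past it was Pbx3 (0.65, background 4.52%). Heterozygous over wild type had Ezh2 (0.80) and Eed (0.62) past it in HSC (background 3.94%) and 0 genes in HPC (background 3.3%). For H3K4me1 after PBS at 16 weeks, Pbx3 (0.77) and Meis2 (0.67) were higher and the Polycomb gene Bmi1 lower (-0.73, background 9.32%). For H3K27ac after PBS, 0 genes of the 3 lists were past it in HSC (background 5.47%), and in HPC Pbx3 was (0.65, background 4.73%), with 4 of 5 cofactors measured. After 5FU, H3K4me1 was lower in the knockout at Meis2 (-0.72) and at 3 of 9 Polycomb genes, Ezh2 (-0.94), Eed (-0.96) and Rnf2, in lists of unequal strength (background 14.2%). For H3K27ac, 0 genes were past the fold after 5FU (background 5.73%), and after IL-1 Pbx3 was (0.65, background 4.1%).

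**Figure D5:**
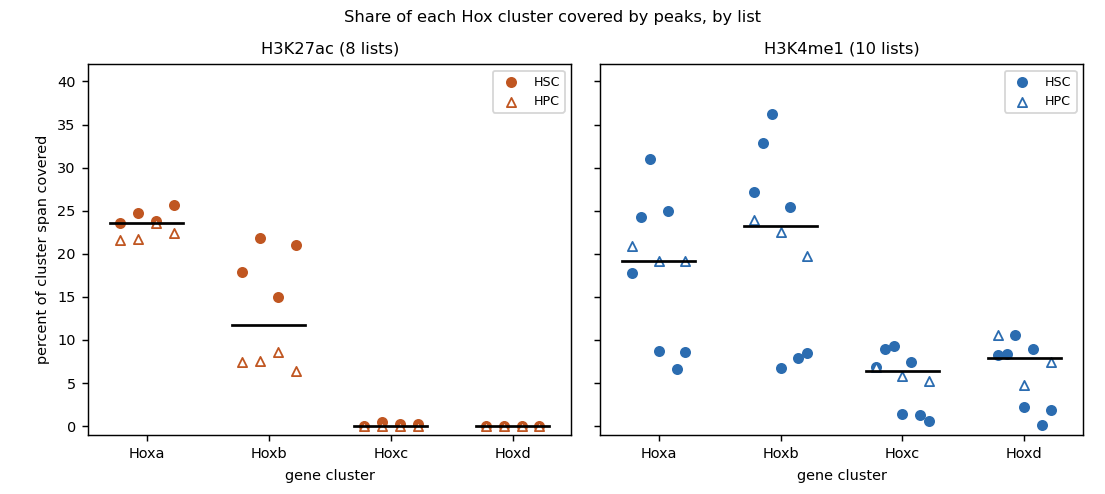
Percent of the span of each Hox cluster covered by peaks (y axis), 1 point for each list, filled circles for HSC and open triangles for HPC, with the median over lists as a line. H3K27ac covers Hoxa in all 8 lists at 21.6% to 25.7% and Hoxb more in HSC than in HPC, and it is at or near 0 at Hoxc and Hoxd.

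Of the 2 Hox clusters with H3K27ac in every list, Hoxa varied less between lists than Hoxb. Over the span of the Hoxa cluster (105.5 kb) it covered 21.6% to 25.7% (median 23.6%) in 8 lists. The Hoxb cluster ran from 6.38% to 21.9% (median 11.8%), with 15.0% to 21.9% in the 4 HSC lists and 6.38% to 8.61% in the 4 HPC lists. Hoxc was covered at 0% to 0.533% and Hoxd at 0% in all 8. For H3K4me1 the medians over 10 lists were 19.2% at Hoxa, 23.2% at Hoxb, 6.34% at Hoxc and 7.85% at Hoxd.

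Across the 18 lists, the genes on other chromosomes whose covered bases varied most like those of the window were Faf1 (Pearson r = 0.909), Foxb1 (0.905), Prickle1 (0.903), Ngly1 (0.898) and Ptprg (0.893), of 20761 genes compared. The values had been set against each list's median and centred within each mark. They share the lists and their depth, so r is a description of these 18 lists only.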

How the data were processed

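Peak lists of 63 samples in 18 groups were used, and 6 input samples were not used here. Per the submitters' processing notes, reads were handled with Novoalign and MACS2 on mm10 (GRCm38) with no filter, version or pooling step named in them. The deposited lists give each peak's position and summit and the authors' fold enrichment (a ratio) and −log10 p. Reads per library are not given in them, so depth is unknown. The lowest −log10 p of every list lay between 2.01 and 2.05.

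Overlapping peaks of a list were merged, and covered bases were counted per window, segment, gene and 500 bp bin (Python 3.11.15, pandas 2.3.3, NumPy 2.4.6, SciPy 1.17.1); the code was checked on simulated data. Gene positions, promoters and mature miRNAs came from RefSeq tables (GRCm38.p6), and strand was read from the promoter table. The text names the 4 genes, the other annotated genes of the window, the strongest 3 peaks of each wild-type list, strong peaks (top 25% by −log10 p) that overlap none in the compared list, the pathway genes and the 5 most alike genes. The members and lists were chosen with earlier results of these data known. Some named items are not reported here.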

Additional observations from a re-analysis of the deposited data

How the results depend on the processing

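No paired analysis was possible because each group has 1 pooled list, and leaving out replicates could not be run for the same reason. Lists reduced to equal numbers of peaks kept the side of the fold in all 21 window comparisons. The window in knockout HPC over HSC (-0.64) fell short of the fold with equal covered bases (-0.583), with 5000 bases added (-0.584) and with 50 kb on each side (-0.547). At 16 weeks, H3K4me1 over the window reversed with equal covered bases for wild-type 5FU over PBS (-0.73) and for knockout over wild type after 5FU (0.709), and the latter passed the fold with 5000 bases added (-0.593). With a −log10 p of at least 5, knockout 5FU over PBS (0.613) and knockout over wild type after PBS (-0.763) passed the fold, and Hoxa10 reversed for wild-type 5FU over PBS (-0.937) and for knockout over wild type after 5FU (0.89). Bins of 1000 bp left 0.0 kb with H3K4me1 in all 10 lists, in place of 1.5 kb. Hoxa7 kept its side of the fold in all 21 comparisons under the 5 alternatives. Exclusive regions of wild-type 5FU against PBS went from 35 to 16, and of 5FU knockout against wild type from 42 to 15, at equal numbers of peaks, and of knockout HPC H3K27ac after IL-1 against PBS from 2 to 1, or to 4 with 50% overlap. For these comparisons the share of all regions without overlap was not taken, so the counts describe the window only. The causes were not tested.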
